A study of Mus musculus with 9 samples.

Results

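The Sox and T-box genes encode transcription factors named after their DNA-binding domains, and 32 of them (18 Sox and 14 T-box genes) were taken as a list of names. For each gene, the CpGs between 2 kb outside one gene end and 2 kb outside the other were collected where all 9 libraries had at least 1 read. A gene needed 10 such CpGs, and 30 of the 32 genes (17 Sox and 13 T-box) had them, among 19626 genes of the genome that did. Sox15 had 6 CpGs and Tbx19 had 4, so neither was tested over its gene region. Sox15 was tested at its promoter only, over 5 CpGs. The genes just inside the limit were Tbx6 with 12 CpGs and Sox18 with 14.

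The cells were Abl.1, a single clone of immortalised B cells from a female F1 mouse of the strains 129S1/SvImJ and CAST/EiJ. They were grown for 2 days with 1% DMSO as control (2 libraries), or with 5-aza-dC (the drug decitabine) at 0.2 µM (2 libraries), 2 µM (3 libraries) or 10 µM (2 libraries). 5-aza-dC is a cytidine analogue that is built into replicating DNA and traps the DNA methyltransferases there. Dead cells were removed on a density gradient, and methylation of the live cells was read by reduced representation bisulfite sequencing (RRBS), which samples the CpG-rich part of the genome. The labels call the replicates library preparations, so the p-values below measure the spread between these libraries, which may be technical, and every value comes from 1 clone.

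Sox factors bind DNA through an HMG box, the domain they share with the sex-determining factor Sry, and bend it in the minor groove, usually beside a partner factor. T-box factors bind through a domain first seen in Brachyury. Members of both families set cell fates in the early embryo, the neural plate, the heart, the limbs, the neural crest and the gonad, and most of them are silent in blood cells. CpG islands, in which CpGs are dense, lie at the start sites of most of these genes, and islands at start sites are unmethylated in most tissues.

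Base composition around the start sites is shown for 5 members that span the range of promoter methylation, from Sox30, at a high level, to Mga, near 0. Each sequence is the 250 bases before an annotated start, read 5′ to 3′ on the gene's strand from RefSeq (GRCm38.p6, the mm10 build of the files). Capitals mark the CpGs that were read in all 9 libraries. The windows are chr11:45980060-45980309 on the plus strand for Sox30, chr16:18588900-18589149 on the minus strand for Tbx1, and chr9:99876171-99876420 on the minus strand for Sox14. For Sox12 the window is chr2:152398047-152398296 on the minus strand, and for Mga it is chr2:119896978-119897227 on the plus strand.
Sox30: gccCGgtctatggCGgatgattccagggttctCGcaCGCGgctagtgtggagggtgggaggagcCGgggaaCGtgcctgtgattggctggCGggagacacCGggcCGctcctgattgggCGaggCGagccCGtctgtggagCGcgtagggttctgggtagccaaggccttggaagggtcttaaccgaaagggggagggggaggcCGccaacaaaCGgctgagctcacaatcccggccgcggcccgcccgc
Tbx1: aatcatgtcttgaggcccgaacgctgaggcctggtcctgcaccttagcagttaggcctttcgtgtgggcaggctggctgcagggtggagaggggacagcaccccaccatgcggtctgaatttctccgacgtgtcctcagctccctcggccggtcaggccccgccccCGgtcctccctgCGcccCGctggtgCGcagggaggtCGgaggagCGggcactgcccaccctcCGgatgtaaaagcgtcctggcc
Sox14: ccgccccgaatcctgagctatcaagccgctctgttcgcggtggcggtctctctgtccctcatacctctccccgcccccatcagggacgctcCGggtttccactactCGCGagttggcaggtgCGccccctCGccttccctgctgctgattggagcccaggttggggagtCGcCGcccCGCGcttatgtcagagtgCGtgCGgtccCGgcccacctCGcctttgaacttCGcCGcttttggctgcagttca
Sox12: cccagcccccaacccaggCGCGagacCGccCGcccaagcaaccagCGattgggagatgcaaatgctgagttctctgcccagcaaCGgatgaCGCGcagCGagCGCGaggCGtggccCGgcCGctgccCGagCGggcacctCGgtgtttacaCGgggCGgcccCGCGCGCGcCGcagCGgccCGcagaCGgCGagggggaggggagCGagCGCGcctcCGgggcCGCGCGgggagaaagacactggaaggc
Mga: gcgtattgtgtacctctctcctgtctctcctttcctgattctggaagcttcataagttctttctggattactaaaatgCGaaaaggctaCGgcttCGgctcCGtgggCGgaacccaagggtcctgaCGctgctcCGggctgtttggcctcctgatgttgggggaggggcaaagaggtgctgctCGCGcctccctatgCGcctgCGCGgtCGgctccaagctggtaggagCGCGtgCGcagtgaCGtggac

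In the Sox30 window 16 of 23 CpGs were read, and their mean level was 85.4% and 90.1% in the DMSO libraries. It was 56.9% and 61.9% at 0.2 µM, 20.7%, 48.4% and 45.7% with 2 µM, and 67.2% and 70.0% at 10 µM. All 7 treated libraries were below both DMSO libraries, and 1 of the 3 libraries at 2 µM was far below the other two. The Tbx1 window (7 of 17 CpGs) averaged 56.4% ± 14.1 (SD, n = 2) in DMSO and 30.8% ± 4.04, 26.6% ± 9.66 and 49.4% ± 9.22 at 0.2, 2 and 10 µM. The Sox14 window (15 of 23 CpGs) averaged 31.8% ± 2.88 in DMSO and 8.69% ± 1.22, 19.3% ± 1.70 and 25.5% ± 0.831 at the same doses, and its groups did not overlap. At the other end, all 35 CpGs of the Sox12 window were read and averaged 4.68% ± 0.721 in DMSO and 1.03% to 2.84% under the drug. The 17 CpGs read of 18 in the Mga window averaged 0.560% ± 0.792 in DMSO, and no methylated read was seen there in 5 of the 9 libraries. With few CpGs a window these values are descriptions, and no test was made on them.

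Each library listed between 1531189 and 2053468 CpGs with 8590777 to 16495423 reads, and 1096949 CpGs had a read in all of them. At these shared CpGs the median depth was 5 reads in the second DMSO library and the second 10 µM library and 8 to 10 in the other libraries, so a single CpG is imprecise and levels are given as means over the CpGs of a gene. The 30 tested members held 12 to 240 CpGs and 30 to 3521 reads per library. The mean level over all shared CpGs was 37.5% and 37.7% in DMSO, 16.5% and 16.7% at 0.2 µM, 22.7% to 23.2% with 2 µM, and 30.6% and 30.8% at 10 µM. RNA was not measured, so the labelled cell type could be checked only through promoter methylation. Of 12 B cell markers, 4 had 5 or more promoter CpGs: Ebf1, Cd79b and Vpreb1 were at 0.533%, 0.625% and 1.11% in DMSO, and Rag1 was at 43.8%. Of 7 T cell markers, 3 had them: Zap70 was at 96.9%, Tcf7 at 7.60% and Cd4 at 0.503%. The erythroid marker Klf1 was at 11.9%, so low promoter levels were not limited to B cell markers.

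In the DMSO control most members were methylated. The median gene level was 59.7% over the 30 members, against 24.7% over all 19626 genes, and 20 of the 30 members (66.7%) were at 50% or more, against 32.3% of all genes. The highest Sox gene was Sox11, a SoxC factor of developing neurons (chr12:27334268-27342718), at 92.7% and 91.7% in the DMSO libraries. Sox30, a factor of male germ cells, was at 90.6% and 93.3%. Sox18, which acts in the formation of vessels, was at 88.8% and 85.2%, but from 14 CpGs. The SoxB genes Sox2 and Sox1, factors of pluripotent and neural progenitor cells, followed at 84.4% ± 0.947 and 80.2% ± 1.48 (SD, n = 2).

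Among T-box genes, Tbx6 (paraxial mesoderm) was at 95.6% and 84.7% over 12 CpGs, Tbr1, a factor of cortical neurons, at 89.2% and 90.1%, and Tbx18, of the epicardium, at 81.3% and 84.3%. Tbx1, of the pharyngeal arches, and Tbx20, of the heart, followed at 68.1% ± 1.06 and 63.4% ± 0.660. The family means of the Sox and T-box genes were 60.3% ± 0.495 and 54.9% ± 0.870 over the libraries, and single genes ran from 5.70% to 92.2% and from 4.58% to 90.2%. Sox11 and Sox30 overlapped in their libraries, as did Tbx6 and Tbr1, while Sox18 lay below Sox30 and Tbx18 below Tbr1 in both libraries.

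The few members at low levels were Sox4 (5.60% and 5.79%), Tbx10 (4.34% and 4.82%) and Mga (8.14% and 7.06%). Sox4, a SoxC factor, is known to be needed for early B cell development, and Mga is a broadly expressed partner of Max that carries a T-box. Against DMSO, the sign of the differences of Sox4, Tbx10 and Mga depended on centring and on the reads asked of a CpG. These 3 genes are far below the next members, Sox12 at 21.8% ± 0.820 and Sox8 at 34.2% ± 6.18. Tbx5, of the forelimb and heart, followed Tbx10 and Mga among the T-box genes at 37.8% ± 3.10. Of the 60 CpGs of Tbx10, 41 lay inside Nudt8, so both genes share these CpGs.

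**Figure D1:**
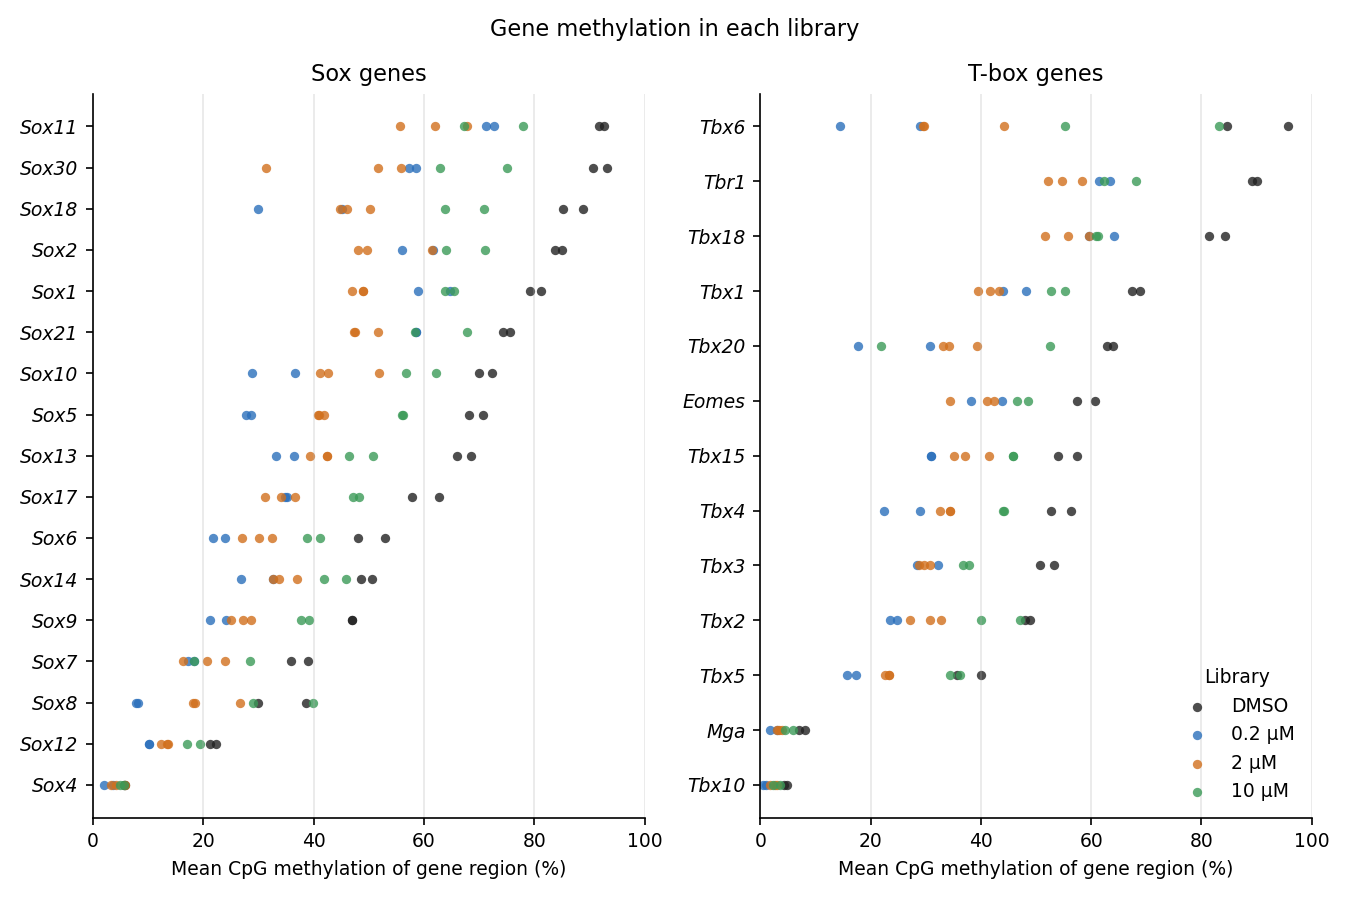
Mean CpG methylation (x axis, %) of the 30 tested members, 1 row per gene ordered by the DMSO mean, and 1 point per library coloured by group. The DMSO points lie at the right of nearly every row, those at 10 µM come next in most rows, and in Sox1, Sox11, Sox21, Sox30, Tbx1 and Tbr1 each 2 µM point lies to the left of both 0.2 µM points.

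The methylation of the members reached their start sites. A promoter region was taken as all CpGs within 1 kb of an annotated start, and 27 of the 32 listed genes had the 5 CpGs needed. The median promoter level in DMSO was 51.4% over these 27 genes, against 2.34% over 17476 genes, and 21 of the 27 (77.8%) were at 20% or more, against 34.9% of all genes. For 9 members (Sox7, Sox9, Sox10, Sox17, Sox18, Tbx2, Tbx3, Tbx5 and Tbx15) no start was given, and windows at both gene ends were used. Among the 18 members with a start the median was 63.2% and 13 were at 20% or more, against a median of 1.23% and a share of 29.5% over 12714 such genes.

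The CpGs outside promoters were, in contrast, no higher than in other genes. Their median was 59.8% over 28 members and 72.5% over 15896 genes. The gap between both medians was thus small in the members and large over all genes. Sox11 stood at 96.0% ± 1.29 (SD, n = 2) in its promoter and 78.0% ± 1.57 outside it. Sox2 (95.1% against 71.2%) and Tbx18 (91.6% against 77.4%) had the same order. Tbx6 (90.2%) and Sox18 (87.0%) had all their CpGs in these windows.

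The other promoter levels in DMSO were 90.8% for Sox30, 78.4% for Sox1, 69.8% for Sox21, 68.6% for Tbr1 and 65.7% for Eomes, the T-box factor of intermediate neural progenitors and of effector lymphocytes. Those of Sox13, Sox10, Sox6, Tbx3 and Sox14 lay at 60.7%, 57.3%, 52.6%, 51.4% and 47.6%. Tbx15, Tbx1, Sox9, Tbx5, Tbx2 and Sox7 closed this group at 43.0%, 42.8%, 39.7%, 35.8%, 33.0% and 32.8%. Many single CpGs had middle values too: 62 of the 93 CpGs of Sox9 and 112 of the 231 CpGs of Tbx2 were themselves between 20% and 80% in DMSO.

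Below 20% were the promoters of Sox8 (19.7% ± 7.83), Sox12 (18.8% ± 0.236), Sox17 (1.24% ± 1.49 SD), Mga (0.353% ± 0.499) and Sox4 (0.221% ± 0.186), and that of Sox15, where no methylated read was seen in the DMSO libraries at 5 CpGs. Sox17, an endoderm and endothelial factor, was split: its 29 CpGs at the gene ends averaged 0.189% and 2.30%, and its other 51 CpGs 90.7% and 97.0%. Sox12 was also split along its length, as 133 of its 201 CpGs were under 20% and 16 were at 80% or more.

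**Figure D2:**
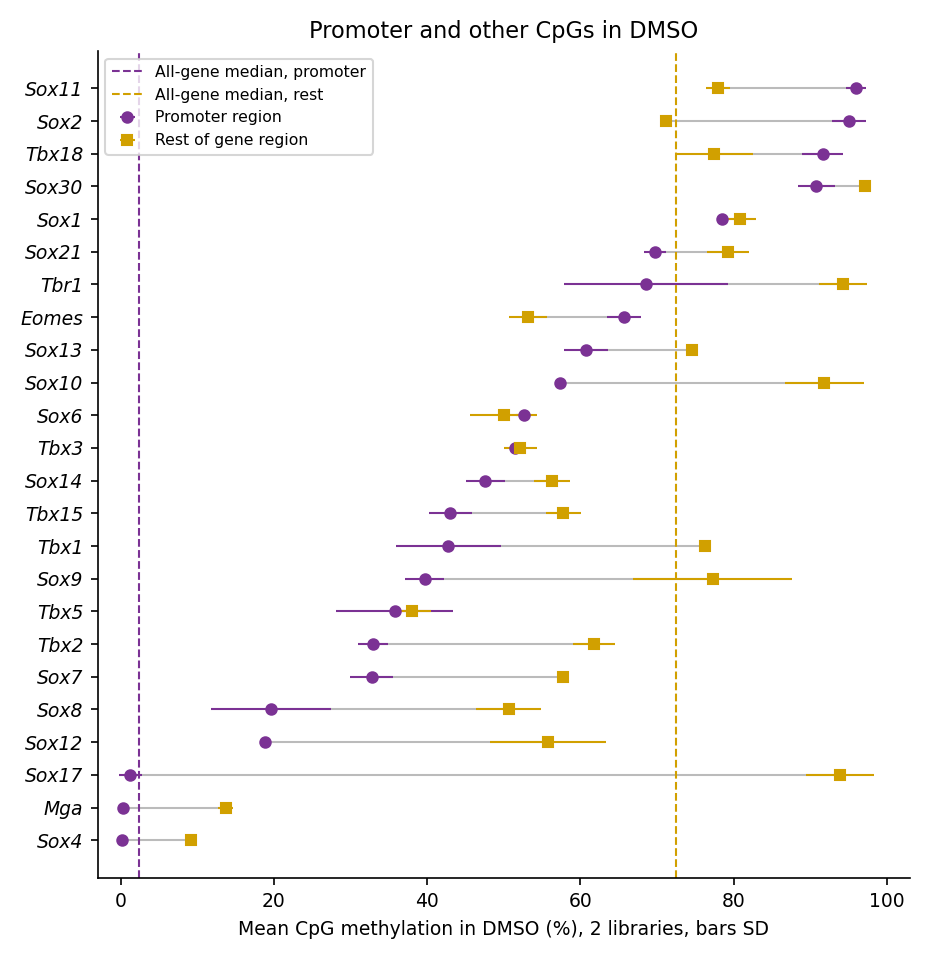
Mean CpG methylation in DMSO (x axis, %, bars SD of 2 libraries) of the promoter region (circles) and of the other CpGs (squares) of the 24 members with both, ordered by the promoter level. Dashed lines are the medians of all genes, 2.34% for promoters and 72.5% outside them, and the promoters of 21 members lie far to the right of the first line.

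All 30 members lost methylation at 0.2 µM. In limma's moderated test with Benjamini-Hochberg adjustment over all 19626 genes (threshold 0.05), 30 of 30 members fell, where 77% of all genes did. At 2 µM 29 of 30 fell (67.3% of all genes), Sox4 being the exception, and at 10 µM 19 of 30 fell (26.3% of all genes), 12 Sox and 7 T-box genes. Of all genes 22.7% were under 5% in DMSO and had little to lose, against 3.33% of the members. Genes of like DMSO level were not compared for these counts, so they are not read as a trait of the families. No member rose against DMSO at any dose, in limma's test, at an unadjusted p under 0.05 or in the model on summed reads, where 0.0611%, 0.138% and 0.265% of all genes did at 0.2, 2 and 10 µM. When each library was centred on its median gene, which itself dropped from 24.7% in DMSO to 8.48%, 15.5% and 21.0%, the split was 15 lower and 4 higher at 0.2 µM, 22 and 3 with 2 µM, and 12 and 1 at 10 µM. The shares of all genes after centring are not given here, so this split is not read as a trait of the members. Without the first DMSO library the uncentred count at 10 µM was 11, and without the second 9. Over all genes the count at 10 µM was 5170, and 1617 to 5363 when 1 library was left out.

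The size of the loss did not follow the dose. Over the 17 Sox genes the mean level was 60.3% ± 0.495 in DMSO, 34.8% ± 0.746 at 0.2 µM, 36.3% ± 1.35 with 2 µM and 48.2% ± 1.32 at 10 µM. Over the 13 T-box genes it was 54.9% ± 0.870, 29.9% ± 0.291, 32.5% ± 0.403 and 42.2% ± 2.36. The lowest dose thus left 57.7% and 54.4% of the control level, and the highest dose 79.9% and 76.8%. Over all genes the corresponding shares were 43.8% at 0.2 µM, 61.0% with 2 µM and 82.1% at 10 µM, close to those of the members at 2 and 10 µM and below them at 0.2 µM.

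Among the SoxB genes, which act in pluripotent and neural progenitor cells, Sox1 (chr8:12395519-12399555) was at 79.1% and 81.2% in DMSO, 64.8% and 59.0% at 0.2 µM, 47.0%, 48.9% and 48.9% with 2 µM, and 65.4% and 63.8% at 10 µM. Its 3 libraries at 2 µM were below all others, and the 10 µM libraries overlapped those at 0.2 µM. Sox1 was lower with 2 µM than at 0.2 µM by 13.6 points (difference -13.6 ± 1.93 SE, limma adjusted p = 0.00219) and higher at 10 µM than with 2 µM by 16.3 ± 1.93 points (limma adjusted p = 0.00118). Sox21 (chr14:118233233-118237030) had the same order, with 74.4% and 75.7% in DMSO, 58.5% and 58.6% at 0.2 µM, 47.5%, 51.7% and 47.3% with 2 µM, and 58.4% and 67.8% at 10 µM, and a difference of -9.71 ± 2.72 points between 2 and 0.2 µM (limma adjusted p = 0.0276).

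Sox2 (chr3:34649995-34652461), a core pluripotency factor, was at 85.0% and 83.7% in DMSO, 55.9% and 61.6% at 0.2 µM, 49.6%, 61.5% and 48.0% with 2 µM, and 71.1% and 64.0% at 10 µM. Its 2 µM and 0.2 µM libraries overlapped, and the difference of -5.77 ± 4.23 points did not pass (limma adjusted p = 0.326). Sox14, an interneuron factor, had its lowest mean at 0.2 µM: 49.6% ± 1.46 in DMSO, 29.7% ± 4.14 at 0.2 µM, 34.5% ± 2.25 with 2 µM and 43.8% ± 2.77 at 10 µM. Its difference of 4.78 ± 2.39 points between 2 and 0.2 µM did not pass either (limma adjusted p = 0.156). All CpGs of Sox1 and Sox2 lie inside the overlapping transcripts Sox1ot and Sox2ot, and RRBS does not assign a CpG to one of them. Other members share CpGs with annotated genes too, among them Sox4 (all 143 CpGs), Tbx3 (71 of 152), Sox21 (49 of 110) and Eomes (54 of 144).

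Of the SoxC genes, Sox11 kept the most at 0.2 µM. It was at 71.3% and 72.7% there, at 62.0%, 55.6% and 67.8% at 2 µM, and at 77.9% and 67.3% at 10 µM, from 92.2% ± 0.690 in DMSO. All treated libraries were below DMSO, and those at 2 µM lay below those at 0.2 µM, a difference that did not pass (-10.2 ± 3.88 points, limma adjusted p = 0.0753). Sox12 (chr2:152393611-152398046) was at 21.2% and 22.3% in DMSO, 10.0% and 10.2% at 0.2 µM, 12.3%, 13.5% and 13.4% with 2 µM, and 17.0% and 19.3% at 10 µM, with no overlap between groups. It rose between 0.2 and 2 µM by 2.94 ± 0.739 points (limma adjusted p = 0.0187), and with libraries centred on their median gene its difference from DMSO at 0.2 µM turned to 4.70 points. Sox4 was at 1.97% and 3.62% at 0.2 µM and between 3.32% and 5.78% at the higher doses, and only its 2 µM libraries overlapped DMSO.

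The SoxD genes, which act in cartilage, neurons and T cells and are long, showed the opposite order of the low doses. Sox5 (chr6:143828425-144782287) was at 70.7% and 68.1% in DMSO, 27.7% and 28.6% at 0.2 µM, 40.8%, 41.8% and 41.0% with 2 µM, and 56.0% and 56.2% at 10 µM. Its 4 groups were fully apart, and both steps upward passed, by 13.1 ± 0.926 and 14.9 ± 0.926 points (limma adjusted p = 0.000221 and 0.000238). Sox6 (50.4% ± 3.48, 22.8% ± 1.53, 29.8% ± 2.72 and 39.9% ± 1.65 in DMSO and at 0.2, 2 and 10 µM) and Sox13 (67.2% ± 1.84, 34.8% ± 2.35, 41.3% ± 1.75 and 48.6% ± 3.02) also rose from 0.2 to 2 µM, by 7.06 ± 1.94 and 6.54 ± 1.80 points.

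The SoxE genes direct neural crest, glia, cartilage and testis. Sox9 was at 46.9% ± 0.0655 in DMSO and 22.6% ± 2.04, 26.9% ± 1.89 and 38.4% ± 0.939 at 0.2, 2 and 10 µM. Sox10 was at 71.1% ± 1.68 and then 32.7% ± 5.42, 45.2% ± 5.76 and 59.4% ± 3.85. Both rose between 0.2 and 2 µM, by 4.35 ± 1.36 and 12.5 ± 3.93 points (limma adjusted p = 0.0404 and 0.0419). Sox8, with 32 CpGs of which 17 lie in Cerox1, was at 29.8% and 38.5% in DMSO, 7.85% and 8.14% at 0.2 µM, 26.6%, 18.1% and 18.5% with 2 µM, and 29.0% and 39.8% at 10 µM. Its 10 µM libraries overlapped DMSO (difference 0.217 ± 4.97 points), and the sign of that difference turned to -4.15 points without the first DMSO library and to -5.23 without the second 10 µM library.

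The SoxF genes act in vessels and endoderm. Sox17 was at 60.3% ± 3.38 in DMSO, 34.9% ± 0.259 at 0.2 µM, 33.9% ± 2.73 with 2 µM and 47.6% ± 0.821 at 10 µM, and Sox18 at 87.0% ± 2.56, 37.5% ± 10.7, 47.0% ± 2.88 and 67.4% ± 4.94. Both were higher at 10 µM than at 2 µM, by 13.7 ± 1.95 and 20.4 ± 5.12 points (limma adjusted p = 0.00215 and 0.0176). Sox7 was the Sox gene that kept the least at 10 µM, at 28.4% and 18.4% from 38.9% and 35.9%, and its second library there was close to the 0.2 µM libraries. Sox30, the only SoxH gene, was at 57.3% and 58.6% at 0.2 µM, 31.4%, 51.6% and 55.9% with 2 µM, and 62.9% and 75.1% at 10 µM; 1 library with 2 µM stood apart, and the difference of -11.6 ± 6.99 points from 0.2 µM did not pass (limma adjusted p = 0.231).

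Of the Tbx1 group, Tbx1 (chr16:18580979-18590671, 240 CpGs) was at 67.4% and 68.9% in DMSO, 48.2% and 44.1% at 0.2 µM, 41.7%, 39.5% and 43.2% with 2 µM, and 52.8% and 55.3% at 10 µM. The 4 groups did not overlap, and Tbx1 was lower at 2 µM than at 0.2 µM (-4.63 ± 1.54 points, limma adjusted p = 0.0495, just inside the threshold). Tbx18 was at 61.9% ± 3.23, 55.7% ± 4.06 and 61.0% ± 0.290 under the 3 doses, and its 10 µM libraries (60.8% and 61.2%) lay between those at 0.2 µM (64.1% and 59.6%).

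Tbx15, which acts in skin and limb skeleton, had the reverse order, at 30.9% and 31.0% at 0.2 µM and 35.2%, 41.5% and 37.1% at 2 µM (6.97 ± 1.93 points higher, limma adjusted p = 0.0265), from 55.7% ± 2.41 in DMSO. Tbx20, with 17 CpGs, kept the least of any T-box gene at 10 µM, but its 2 libraries there were at 52.6% and 21.9%, wider apart than any other pair of the group. Tbx10 fell at 0.2 µM from 4.58% ± 0.338 to 0.792% ± 0.432 (limma adjusted p = 0.00107).

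The Tbx2 group forms pairs that specify limbs and heart. Tbx4 (hindlimb) was at 52.7% and 56.3% in DMSO, 29.0% and 22.5% at 0.2 µM, 32.6%, 34.4% and 34.4% with 2 µM, and 44.0% and 44.3% at 10 µM, without overlap between groups. Tbx5 (forelimb) was at 40.0% and 35.6%, then 15.8% and 17.4%, then 23.4%, 22.6% and 23.3%, and at 10 µM 36.2% and 34.3%, the last pair overlapping DMSO. Both were higher at 2 µM than at 0.2 µM, by 8.02 ± 2.10 and 6.51 ± 1.27 points (limma adjusted p = 0.0217 and 0.00742).

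Tbx2 and Tbx3 are transcriptional repressors of the same group. Tbx2 was at 48.4% ± 0.594 in DMSO and 43.5% ± 5.05 at 10 µM, a difference that did not pass (-4.93 ± 2.43 points, limma adjusted p = 0.172). Tbx3 was at 51.9% ± 1.75 and 37.3% ± 0.689, and it fell (-14.6 ± 1.48 points, limma adjusted p = 0.00146). At 0.2 µM Tbx2 was at 24.1% ± 0.926 and Tbx3 at 30.4% ± 2.72, and at 2 µM they were at 30.2% ± 2.86 and 29.8% ± 0.968. Whether the 2 genes differ in their response was not tested.

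Tbx6 differed from DMSO at 0.2 and 2 µM by more than any other tested member, over 12 CpGs. It was at 29.0% and 14.4% at 0.2 µM, 44.1%, 29.6% and 29.6% with 2 µM, and 83.1% and 55.2% at 10 µM. Its SD reached 19.8 points at 10 µM. Mga went from 7.60% ± 0.765 in DMSO to 2.40% ± 0.994, 3.44% ± 0.508 and 5.13% ± 1.04. Eomes was at 59.1% ± 2.34 in DMSO, 41.0% ± 4.01 at 0.2 µM, 39.3% ± 4.28 with 2 µM and 47.6% ± 1.34 at 10 µM. Tbr1 was at 63.5% and 61.5% at 0.2 µM, 52.2%, 58.4% and 54.6% with 2 µM, and 62.4% and 68.1% at 10 µM, and its difference between 2 and 0.2 µM lay just outside the threshold (-7.41 ± 2.47 points, limma adjusted p = 0.0504).

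Among members at 10% or more in DMSO, which leaves out Sox4, Tbx10 and Mga, the share of the DMSO level kept at 10 µM was highest for Sox8 (101%) and Sox14 (88.5%) among the Sox genes and for Tbx5 (93.3%) and Tbx2 (89.8%) among the T-box genes, and none of these 4 passed the test at this dose. Among the same members it was lowest for Sox7 (62.4%) and Sox13 (72.3%) of the Sox genes and for Tbx20 (58.7%) and Tbx3 (71.8%) of the T-box genes. Of these, Tbx20 did not pass (-26.2 ± 9.52 points, limma adjusted p = 0.0783), and Sox7, Sox13 and Tbx3 fell by 14.1 ± 3.48, 18.6 ± 1.97 and 14.6 ± 1.48 points. Sox4, Tbx10 and Mga kept 91.1%, 64.4% and 67.5%.

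Members were sorted by which of the 4 group means was lowest, a sorting in which small differences count as well. The lowest of the 4 group means was at 2 µM in 11 of 30 members (36.7%), against 11.4% of all genes, and at 0.2 µM in the other 19 (63.3%), against 80.2%. These 11 were Sox1, Sox2, Sox11, Sox17, Sox21, Sox30, Tbx1, Tbx3, Tbx18, Eomes and Tbr1. Of them, Tbx3 (-0.617 ± 1.35 points), Sox17 (-1.04 ± 1.95) and Eomes (-1.70 ± 2.63) differed between 2 and 0.2 µM by less than their SE. In limma's test 3 members (Sox1, Sox21 and Tbx1) were lower at 2 µM than at 0.2 µM, where 1.16% of all genes were, and 9 (Sox5, Sox6, Sox9, Sox10, Sox12, Sox13, Tbx4, Tbx5 and Tbx15) were higher, where 34.6% of all genes were. The count of 9 was 2 or 3 without the first or second library at 0.2 µM, 4 without the third at 2 µM and 6 without the second. The count of 3 became 1 without the first library at 0.2 µM, and 2 without the second, without the first library at 2 µM, or without either DMSO library. With libraries centred on their median gene the split was 14 lower and 1 higher, and with the library number as a block it was 3 and 3.

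Methylated genes as a whole were next compared, a choice made after the data had been seen. Among the 6337 genes at 50% or more in DMSO, 18.6% had a lower mean at 2 µM than at 0.2 µM and 3.35% passed as lower. Of the 20 members in that class, 11 had a lower mean and 3 passed. In the same class 37.4% of genes, and 6 of the 20 members, passed as higher. The count of 11 of 30 members lower at 2 µM lay between 9 and 12 in the alternatives without centring, except with 10 reads. The 12 were out of 27 members, without bases outside the gene ends. Of all genes 15.15% were lower in the main analysis, and 13.3% to 17.08% in the alternatives that kept the read minimum. On CpGs with 5 or more reads 11 of 24 members (45.8%) were lower, against 29.05% of all genes. With 10 or more reads 5 of the 13 members left were lower, and 36.8% of all genes were.

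CpG density was set beside the difference between 2 and 0.2 µM, also after the data had been seen. The density of a CpG was counted as the CpGs listed in any library within 50 bases on either side, itself included. Across the 30 members, which are not independent replicates and share the libraries, the difference between 2 and 0.2 µM ran against the mean density (Pearson's r = -0.635, Spearman's rho = -0.712), and it did so across all genes as well (r = -0.579). Sox5, at 4.41 CpGs, lay at 13.1 points, whereas Tbr1, at 10.8 CpGs, lay at -7.41 and Sox11, at 12.0 CpGs, at -10.2. Sox12, at 14.4 CpGs the densest member, was outside this pattern at 2.94 points, and most of its CpGs were unmethylated in DMSO. Sox30 lay at -11.6 points with 8.13 CpGs, and Sox10 at 12.5 points with 9.66.

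**Figure D3:**
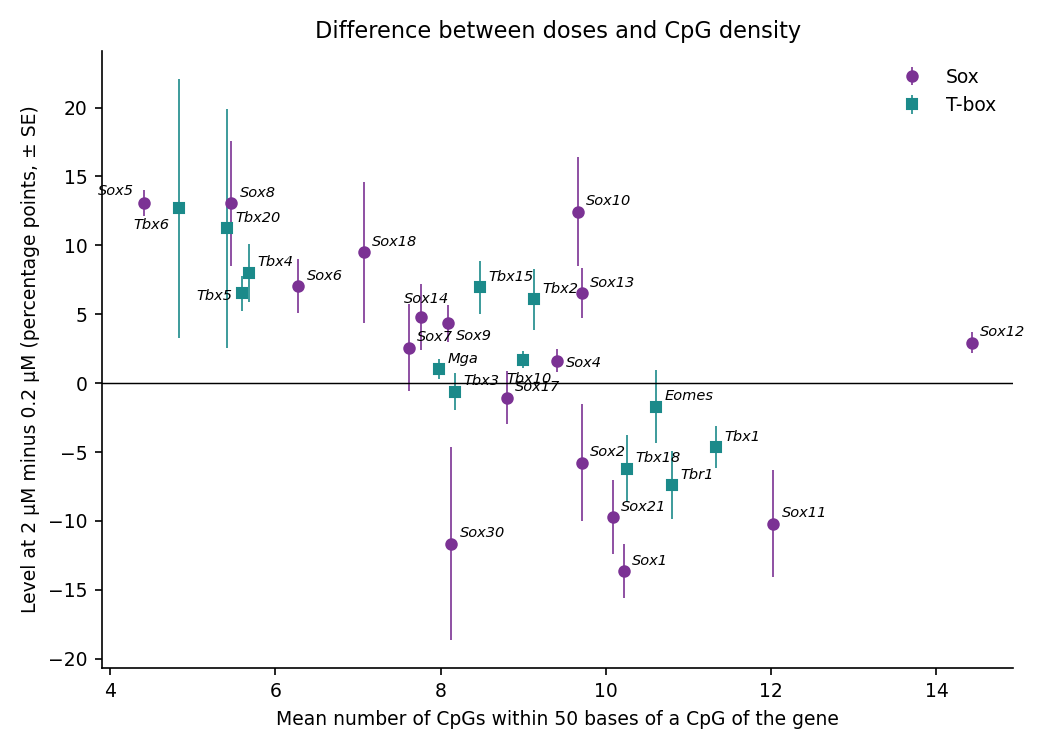
Difference in gene level between 2 µM and 0.2 µM (y axis, percentage points, bars limma SE) against the mean number of CpGs within 50 bases of a CpG of the gene (x axis) for the 30 tested members. The genes with the sparsest CpGs (Sox5, Tbx6, Tbx20, Sox8) lie above 0, and the members below 0 lie at 8 CpGs or more.

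Single CpGs gave the same picture. At the members' CpGs that were at 80% or more in DMSO, a class chosen on the DMSO libraries only, sparse sites with 1 to 3 CpGs within 50 bases (170 CpGs) were at 94.6% ± 0.151 in DMSO, 30.9% ± 1.89 at 0.2 µM, 48.2% ± 1.26 with 2 µM and 66.5% ± 0.519 at 10 µM. Dense sites with 10 or more (602 CpGs) were at 95.3% ± 0.912, 67.9% ± 0.0101, 57.9% ± 0.732 and 71.4% ± 2.15. The gap between sparse and dense sites was widest at 0.2 µM, where the libraries of both classes were far apart. All genes together gave the same order of the doses within each class, with 29.2%, 52.3% and 72.8% at sparse sites and 62.7%, 55.7% and 71.8% at dense sites. At 10 µM sparse sites were below dense sites in the members and slightly above them over all genes. Among these highly methylated CpGs, dense sites made up a larger part in the members, at 48.4% against 19.4% over all genes. Among CpGs of any level the parts were alike, at 42.2% in the members and 44.2% over all genes.

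**Figure D4:**
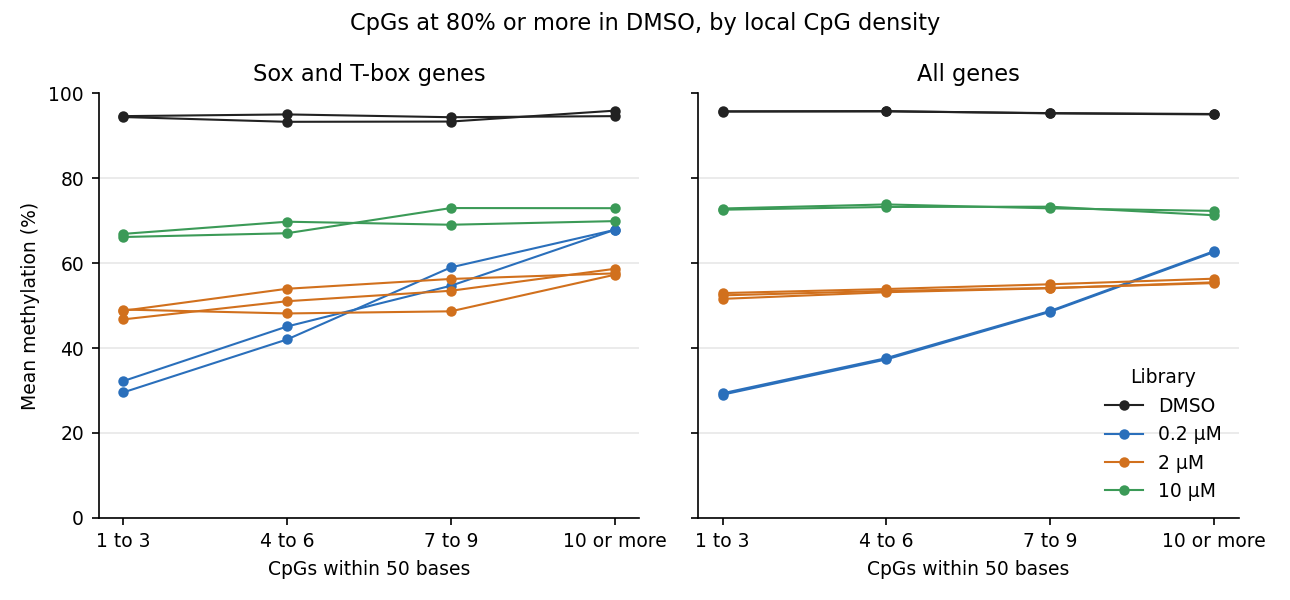
Mean methylation (y axis, %) of CpGs at 80% or more in DMSO in 4 classes of CpG density (x axis), 1 line per library, for the members (left) and for all genes (right). The 0.2 µM lines climb from about the lowest values of the plot to above the 2 µM lines in the densest class, while the 2 and 10 µM lines change less. The DMSO lines are high and level because the CpGs were chosen on the DMSO libraries.

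Between 2 and 10 µM all 30 members had the higher mean level at 10 µM, while 12.7% of all genes had the lower one there. Among genes at 50% or more in DMSO, 97.6% had the higher mean at 10 µM, as did all 20 members in that class. In limma's test 22 of 30 passed as higher (39.1% of all genes did) and none as lower (0.107%), also at an unadjusted p under 0.05. The differences that passed ran from 5.10 points for Sox12 to 34.7 points for Tbx6. Among genes at 50% or more in DMSO, 17 of 20 members passed as higher, against 58.6% of such genes, and none as lower, against 0.0316%. The 8 members that did not pass were Sox11 (10.8 ± 3.88 points), Sox8 (13.3 ± 4.54), Tbx18 (5.39 ± 2.41), Tbx20, Sox7 and the 3 genes at low levels, and the limma adjusted p of the first 3 was 0.0596, 0.0502 and 0.113. Without the second 10 µM library the count was 15, and in all other omissions of 1 library it was 19 to 22.

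At promoters, 21 of 27 members fell at 0.2 µM (33.9% of 17476 genes) and 20 fell at 2 µM (24.6%). In DMSO 55.0% of all promoters were under 5%, against 14.8% of the members' promoters, and promoters of like DMSO level were not compared. At 10 µM only Sox1 and Tbx2 fell in limma's test (3.28% of genes), by 21.1 ± 3.00 and 8.57 ± 1.23 points, though 17 members had an unadjusted p under 0.05. Neither passed without the first or the second DMSO library, 1 member passed without either 10 µM library, and without the first or the third 2 µM library 4 or 5 did. The promoter of Sox21 was lower at 2 µM than at 0.2 µM (47.1% ± 2.90 against 58.4% ± 0.868, limma adjusted p = 0.0329; 0.561% of genes), and no member promoter was higher (2.52% of genes), where 2 had an unadjusted p under 0.05. Between 2 and 10 µM the promoters of Sox9, Sox12 and Sox21 rose (5.44% of genes) and none fell (0.0801%). Against DMSO no member promoter was higher in limma's test, where 0.235%, 0.166% and 0.12% of genes were at 0.2, 2 and 10 µM. The promoter of Sox15, with 5 CpGs, had an unadjusted p under 0.05 at 10 µM (10.0 ± 2.82 points higher, limma adjusted p = 0.123). Without the second 2 µM library 1 member promoter passed as higher at 0.2 µM.

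Outside promoters 28, 24 and 15 of 28 members fell at the 3 doses, against 87.5%, 78% and 30.6% of 15896 genes. No member was higher there in limma's test, also at an unadjusted p under 0.05 (0.0189%, 0.0629% and 0.107% of genes). The count of 15 was 10 without the first DMSO library and 8 without the second. From 0.2 to 2 µM these outside regions were lower in Sox1 and Tbx1 (0.648% of genes) and higher in 7 members (43.4%). From 2 to 10 µM they were higher in 17 members (45% of genes) and lower in none (0.0881%).

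**Figure D5:**
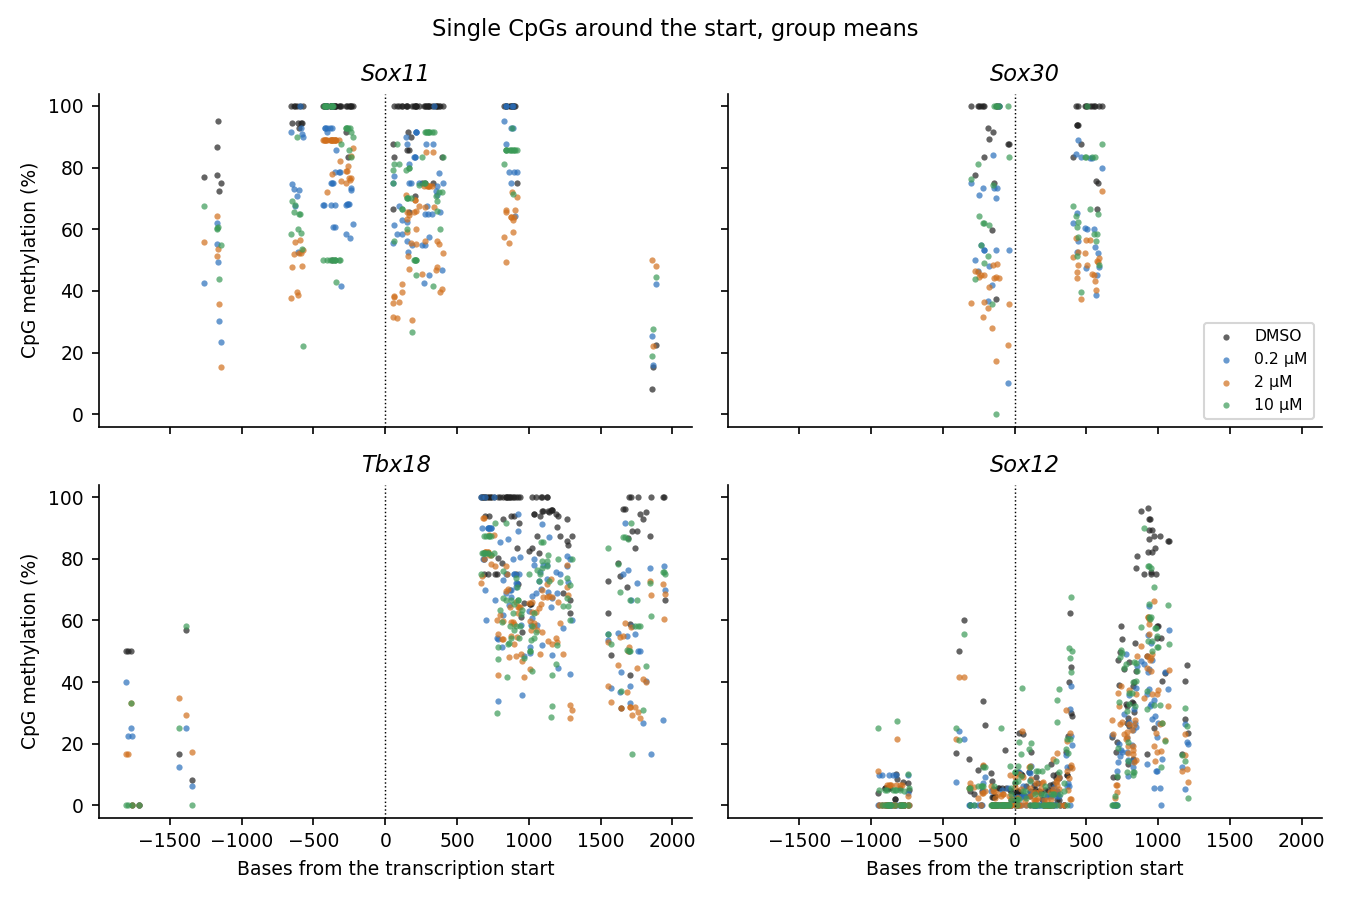
Methylation of single CpGs (y axis, %, group means) by distance in bases from the annotated start (x axis, negative before the start) for Sox11, Sox30, Tbx18 and Sox12, coloured by group. Most DMSO points of Sox11 and Sox30 beside the start, and of Tbx18 further inside the gene, lie near the top with the treated points spread below them, whereas in Sox12 most CpGs at the start are near 0 in every group and those further inside are higher.

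Genes that work with these families were counted from a separate list of 38 names: other family members, other HMG box factors and known partners. Of the 36 with 10 or more CpGs, 34, 30 and 18 fell at 0.2, 2 and 10 µM in limma's test, where 77%, 67.3% and 26.3% of all genes did, and none rose, also at an unadjusted p under 0.05. Between 0.2 and 2 µM 3 were lower (Foxd3, Hand2 and Tle1, by 16.1 to 11.9 points; 1.16% of all genes) and 14, or 38.9%, were higher (34.6% of all genes). Between 2 and 10 µM 24, or 66.7%, were higher (39.1% of all genes). The highest in DMSO were L3mbtl2, a subunit of the Polycomb complex that holds Mga, at 93.6% ± 1.73, the SoxB gene Sox3 at 93.3% ± 4.11, and the neural crest factor Foxd3 at 89.3% ± 1.23. Sox3 went to 72.7% ± 3.08, 61.4% ± 4.87 and 74.9% ± 8.49 and Foxd3 to 69.6% ± 4.51, 53.6% ± 8.40 and 65.9% ± 5.73 at 0.2, 2 and 10 µM, both with the lowest mean at 2 µM. L3mbtl2 went to 26.6% ± 4.36, 49.9% ± 9.46 and 74.7% ± 2.51, with the lowest mean at 0.2 µM. L3mbtl2 had the largest rise among those 14, by 23.3 points.

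The gene regions of the 2 members with too few CpGs are given as values only. Sox15, a factor of muscle precursors, averaged 10.8% ± 3.54 over 6 CpGs in DMSO and 2.04% ± 0.262, 5.79% ± 3.87 and 19.4% ± 3.93 at 0.2, 2 and 10 µM. Tbx19, the corticotroph factor, averaged 52.3% ± 3.28 over 4 CpGs and then 20.3% ± 5.16, 29.9% ± 25.7 and 56.2% ± 8.84. With 4 to 27 reads per library over the whole of Tbx19, these values carry little weight.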

How the data were processed

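RRBS was made of DNA from 9 libraries of 1 Abl.1 clone: 2 of DMSO and 2, 3 and 2 of 0.2, 2 and 10 µM 5-aza-dC. The deposited files of the authors list, for each CpG, a text entry of methylated over total reads and a score from 0 to 1000 that equals this share; positions are on mm10, per the submitters' processing notes. Which aligner, caller and filters made them is not given in the sources used here. All 256267 listed CpGs within RefSeq promoter windows fell on CG letters.

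A gene level is the unweighted mean percent over CpGs with 1 or more reads in all 9 libraries, from 2 kb outside one gene end to 2 kb outside the other, with 10 or more CpGs (promoters and the rest of the gene: 5 or more). Gene positions and starts are from RefSeq GRCm38.p6. Levels were tested with limma 3.58.1 in R 4.3.3 (1 mean per group, 5 residual degrees of freedom, a trend on expected counting error, Benjamini-Hochberg over all genes, 0.05, two-sided), after a test on simulated data. Tables were made with Python 3.11.15, numpy 2.4.6 and pandas 2.3.3. A promoter is within 1 kb of an annotated start, or of both gene ends where none is given. Differences are in percentage points ± SE, levels ± SD over libraries.

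Alternatives were 5 or 10 reads per CpG, summed reads in a quasi-binomial model, an arcsine scale, no trend, median centring, other gene ends, CpG numbers and windows, removal of the deepest 0.1% of CpGs, a block for the library number, and omission of each library. Deviations of libraries with the same number from their group means correlated at -0.0211 to 0.0198 across genes, so no shared deviation was seen. Whether the numbers pair libraries in another way was not tested, and with the number as a block some counts changed, as given below. The members and lists were chosen with earlier results of these data known. Named with values were the 5 highest and 3 lowest members of each family in DMSO, members higher in any comparison, those keeping the most and least at 10 µM among members at 10% or more in DMSO, members with promoters at 20% or more, and members with under 10 CpGs.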

Additional observations from a re-analysis of the deposited data

How the results depend on the processing

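With 1 read per CpG allowed, single sites are imprecise, and stricter minimums leave fewer members (24 at 5 reads, 13 at 10 reads), so counts there are out of fewer genes. The causes of the changes below were otherwise not tested. Calls over all genes also moved when 1 library was left out, so changed counts of members there cannot be read as a trait of these genes. For the other alternatives the shares of all genes are not given here, so the counts of members there cannot be read as such a trait either. At 5 reads 19 members were lower at 0.2 µM than in DMSO, none was higher at 2 than at 0.2 µM, 8 were higher at 10 than at 2 µM, and 13 promoters and 18 outside regions were lower at 0.2 µM. The Sox means differed from DMSO by -21.0 at 0.2 µM and -15.3 at 10 µM, and the T-box means by -16.5, -16.7 and -10.1 at 0.2, 2 and 10 µM. Signs turned for Sox4 at 0.2 µM (0.122) and for Tbx10 (0.283) and Mga (0.0322) at 2 µM.

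At 10 reads 6, 7 and 1 members were lower than DMSO at the 3 doses, 0 were lower and 0 higher at 2 than at 0.2 µM, and 0 were higher at 10 than at 2 µM. The Sox means differed by -7.78, -10.5 and -7.98 and the T-box means by -12.2, -10.4 and -5.40. Signs turned for Sox4 (0.212, 0.281 and 0.446) and Sox7 (0.571, 0.0938 and 0.920) at 0.2, 2 and 10 µM, for Tbx10 at 2 µM (0.166), and for Mga at 2 µM (0.387) and 10 µM (0.439).

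With library medians subtracted 15 and 12 members were lower at 0.2 and 10 µM, 14 were lower and 1 higher at 2 than at 0.2 µM, and 10 were higher at 10 than at 2 µM. The Sox means differed by -9.19, -14.5 and -8.27 and the T-box means by -8.68, -12.9 and -8.91. Signs turned for Sox4 (13.4, 8.24 and 3.31), Sox12 (4.70, 0.812 and 0.219), Tbx10 (12.5, 7.43 and 2.19) and Mga (11.1, 5.35 and 1.35), and for Tbx5 at 10 µM (1.29). With summed reads 6 members were lower at 2 than at 0.2 µM and 7 promoters lower at 10 µM. The Sox means differed by -21.6, -20.3 and -10.2 and the T-box means by -21.7, -19.8 and -9.55. Signs turned for Sox4 (0.188, 1.02 and 0.339), for Sox12 (2.33) and Mga (1.35) at 10 µM, and for Tbx10 at 2 µM (0.300) and 10 µM (0.0809).

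Without bases outside the gene ends 5 members were lower at 2 than at 0.2 µM, the T-box mean differed by -23.3 at 0.2 µM, and the sign of Sox4 turned (0.499, 0.842 and 0.0281). With 5 kb the Sox mean differed by -26.7 at 0.2 µM, the T-box mean by -20.9 and -18.6 at 0.2 and 2 µM, and Sox8 by -6.51 at 10 µM. With 20 CpGs per gene the Sox mean differed by -24.0, and the T-box mean by -19.8 and -18.9, and with 1 CpG the Sox mean differed by -24.6 at 0.2 µM. With a promoter window of 500 bases 0 promoters were lower at 10 µM, and with 2 kb 7 promoters and 9 outside regions were. With the replicate block 3 members were higher at 2 than at 0.2 µM and 0 promoters were lower at 10 µM.

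When 1 library was left out, 29 to 30, 26 to 29 and 9 to 21 members were lower than DMSO at 0.2, 2 and 10 µM, 1 to 4 were lower and 2 to 12 higher at 2 than at 0.2 µM, and 15 to 22 were higher at 10 than at 2 µM. For promoters the counts below DMSO were 14 to 22, 15 to 21 and 0 to 5, and outside promoters 23 to 28, 22 to 24 and 8 to 15. The Sox means differed by -26.1 to -25.0, -24.7 to -23.3 and -13.0 to -11.2, and the T-box means by -25.6 to -24.4, -23.0 to -21.8 and -14.4 to -11.1. Sox8 at 10 µM ranged from -5.23 (without the second 10 µM library) to 5.66 and was -4.15 without the first DMSO library. Over all alternatives, 1639 single-gene differences from DMSO kept their sign and side of the threshold, 109 lost the call, 17 gained one and 38 changed sign. Single genes in the comparisons between doses are not part of this tally.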
